A study of Mus musculus with 8 samples.

Results

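The members described here are 5 genes of the 32285 measured: Cd69, Cxcr6, P2rx7, Itgae and Itga1. They were chosen as markers of tissue-resident T cells, and for Cd69, Cxcr6 and P2rx7 the protein was counted in the same cells with DNA-tagged antibodies (CITE-seq). The cells were conventional CD4 T cells from Foxp3-Cre-YFP mice with experimental autoimmune encephalomyelitis (EAE), a model of autoimmune inflammation of the central nervous system. All groups share that genotype and that immunization, and differ in tissue and time. They are brain freed of meninges at day 14, the same at day 50, spinal cord at day 14 and spinal cord at day 50. Cells were sorted as TCRβ+ CD11b- CD44+ and Foxp3-YFP-, so regulatory T cells and cells without the activation marker CD44 had been gated out, and no other tissue or unimmunized mouse was measured. How many mice were pooled for a sample is not given in the labels.

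CD69 is a C-type lectin that lymphocytes show early after stimulation. Its protein binds the sphingosine-1-phosphate receptor S1PR1 and takes it off the cell surface, which holds lymphocytes in a tissue. CXCR6 is the chemokine receptor for CXCL16. P2X7, encoded by P2rx7, is an ion channel opened by extracellular ATP, and on mouse T cells it can also be activated through ADP-ribosylation when NAD is released. Itgae encodes CD103, the integrin chain that pairs with beta7 and binds E-cadherin, and Itga1 encodes CD49a, the chain that pairs with beta1 and binds collagen. The antibodies report protein on the cell surface, while the transcript counts report RNA in the same cell.

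The genes sit on 5 different chromosomes of the mouse assembly GRCm38.p6. RefSeq places Cd69 at chr6:129267324-129275375, Cxcr6 at chr9:123806477-123811754 and P2rx7 at chr5:122643927-122692336. It places Itgae at chr11:73090505-73147449 and Itga1 at chr13:114958079-115101964. Counts came from a 3′ assay and do not scale with gene length, so levels of different genes are compared as captured molecules only.

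Each group was 1 library, so no difference below carries a test or a p-value, and intervals (95%, exact) cover counting error only. Cells were kept with 500 or more genes and at most 10% mitochondrial UMIs (unique molecular identifiers, the counted molecules). That left 10313 cells in the day 14 brain, 348 in the day 50 brain, 9270 in the day 14 spinal cord and 1620 in the day 50 spinal cord. Median RNA UMIs per cell lay between 3014.5 and 4921, and median antibody UMIs per cell were 26, 7, 50 and 26 in the same order. The markers of CD4 T cells summed to between 5580 and 5807 CPM (UMIs scaled to a fixed library total) with none at 0, and Foxp3 had 2, 0, 1 and 1 UMIs. Dendritic-cell genes summed to 96.8 CPM in the day 50 brain and to 10.9 to 14.2 CPM elsewhere, and their part in the day 50 brain values was not tested. Oligodendrocyte genes summed to 50.4, 45.8, 75.5 and 52.8 CPM in the same order, with a UMI in 19.1%, 14.1%, 31.4% and 17.4% of kept cells. Endothelial genes summed to 39.8, 30.6, 60.3 and 16.1 CPM. The source of these UMIs was not tested. The day 14 brain and day 14 spinal cord libraries shared 33 barcodes of kept cells, and the other 5 pairs of libraries shared 0 to 4.

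Cd69 and Cxcr6 were abundant, P2rx7 was sparse, and the 2 integrin transcripts were close to the limit of capture. Cd69 stood at 666 CPM in the day 14 brain, 737 in the day 50 brain, 417 in the day 14 cord and 309.6 in the day 50 cord. Both brain libraries were above both cord libraries. Cxcr6 stood at 346, 327, 580 and 311 CPM in the same order, with the day 14 cord highest and the intervals of the day 50 brain (295 to 361) and the day 50 cord (297 to 326) overlapping. P2rx7 stood at 28.2, 28.9, 51.0 and 42.0 CPM, and the brain values lay within each other's intervals. Itga1 stood at 6.01, 16.98, 14.4 and 31.3 CPM, lowest in the day 14 brain and highest in the day 50 cord. Itgae gave 93, 1, 112 and 13 UMIs in all, or 1.97, 0.849, 2.21 and 2.14 CPM, with intervals that overlapped in every pair of libraries.

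Ordered within a library by captured molecules, Cd69 was first in both brain libraries and Cxcr6 was first in the day 14 cord. In the day 50 cord the intervals of Cd69 (296 to 324) and Cxcr6 overlapped. There P2rx7 (37.0 to 47.4) lay just above Itga1 (27.0 to 36.0). To set aside depth, the RNA of each cell with 2000 or more UMIs was thinned to 2000, which left out 1163, 98, 142 and 127 shallower cells. After thinning, Cd69 was found in 60.2%, 60.4%, 46.7% and 34.3% of cells, against 76.2%, 70.4%, 69.1% and 46.8% of kept cells at full depth. Cxcr6 was found in 41.7%, 34.0%, 59.2% and 37.3%, and P2rx7 in 5.25%, 8.40%, 8.71% and 7.17%. Itga1 was found in 1.13%, 2.0%, 2.77% and 4.15%. Itgae was found in 0.404%, 0 of 250 cells (which allows a share of up to 1.46%), 0.482% and 0.402%. The sort left no separable cell type that lacks these genes, so the share that free RNA could give was not measured.

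**Figure D1:**
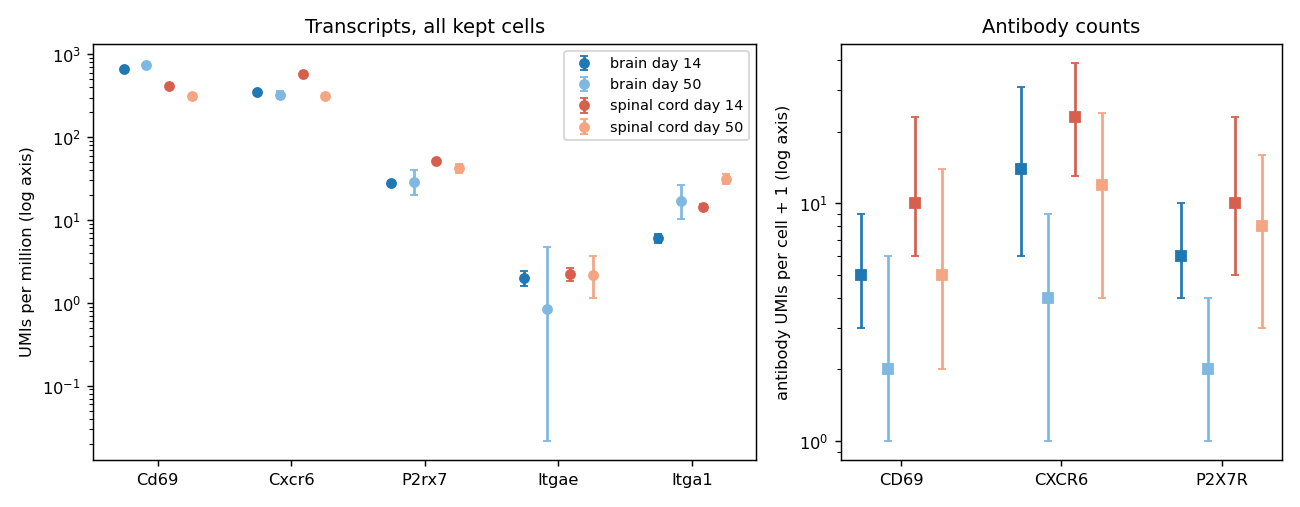
Left, CPM of each member in the 4 libraries on a log axis, with exact 95% Poisson intervals for counting error. Right, antibody UMIs per kept cell plus 1 on a log axis, squares at the median and bars from the 25th to the 75th percentile. Cd69 and Cxcr6 sit above 300 CPM in all libraries, Itgae near 2 CPM or below, and all antibody medians are lowest in the day 50 brain.

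The antibody counts differed between libraries, and depth, staining and surface level cannot be told apart in them. The median CD69 count per cell was 4, 1, 9 and 4, that of CXCR6 was 13, 3, 22 and 11, and that of P2X7R was 5, 1, 9 and 7. The day 50 brain was lowest for each antibody, and 34.5% of its cells had no CD69 count. Levels are therefore not compared between libraries, and shares of the 3-antibody total are given instead. CD69 made up 21.4%, 30.6%, 31.6% and 26.8% of antibody UMIs, CXCR6 58.2%, 50.3%, 43.2% and 45.9%, and P2X7R 20.4%, 19.2%, 25.2% and 27.4%. A single day 14 cord cell held 4533 CD69 counts, so ranks and medians are used below, except where means are named. Antibody counts were higher in cells with more RNA: their rank correlation with RNA UMIs lay between 0.251 and 0.431 in all 12 combinations of antibody and library. No isotype control antibody is in the tables, so the background binding was not measured.

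CXCR6 and P2X7R protein followed their own transcripts across cells, while CD69 protein hardly did. At equal RNA depth, the Spearman correlation of CXCR6 antibody with Cxcr6 transcript was 0.364 over 9150 day 14 brain cells, 0.336 over 250 day 50 brain cells, 0.308 over 9128 day 14 cord cells and 0.327 over 1493 day 50 cord cells. Among the 7841 to 8392 genes found in 1% or more of cells of a library, the rank of Cxcr6 was 1, 4, 1 and 1. The correlation of P2X7R antibody with P2rx7 was 0.155, 0.128, 0.218 and 0.161, and the rank of P2rx7 was 1, 218, 1 and 24. The correlation of CD69 antibody with Cd69 was 0.056, -0.027, 0.009 and 0.051, and the rank of Cd69 was 179, 5342, 3087 and 456. Cells of a library share its chemistry and depth, so these values are descriptions without a test.

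Correlations of 0.1 or more were scarce in the large libraries and common in the small one. Of the genes ranked in the day 14 brain, 0.487% reached 0.1 with CD69 antibody, 1.2% with CXCR6 antibody and 0.1% with P2X7R antibody. In the day 14 cord the shares were 0.703%, 0.536% and 0.214%, and in the day 50 cord they were 0.518%, 1.28% and 1.11%. In the day 50 brain they were 7.68%, 8.16% and 6.82%, so a value near 0.1 there stands within the spread of all genes. Correlations of -0.1 or below with CD69 antibody were found for 0.225%, 5.99%, 0.5% and 0.48% of genes in the order day 14 brain, day 50 brain, day 14 cord and day 50 cord. With CXCR6 antibody the shares were 0.775%, 7.26%, 0.405% and 0.784%, and with P2X7R antibody 0.137%, 7.01%, 0.203% and 0.569%. Against this background, the Cxcr6 and P2rx7 pairs reached 0.1 in all 4 libraries and the Cd69 pair in none. These calls depend on the depth used. Without thinning, where both counts carry the size of the cell, the Cd69 pair reached 0.205, 0.130, 0.122 and 0.129. The P2rx7 pair fell under 0.1 at 1000 UMIs in the day 14 brain (0.083) and the day 50 cord (0.098), and as a share of the 3 antibodies in the day 50 cord (0.083). Over 20 draws of the thinning, the P2rx7 pair in the day 50 brain ranged from -0.00675 to 0.172, so its single value there is not stable. The Cxcr6 pair stayed between 0.287 and 0.413 over all draws and libraries, and the Cd69 pair between -0.106 and 0.105.

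**Figure D2:**
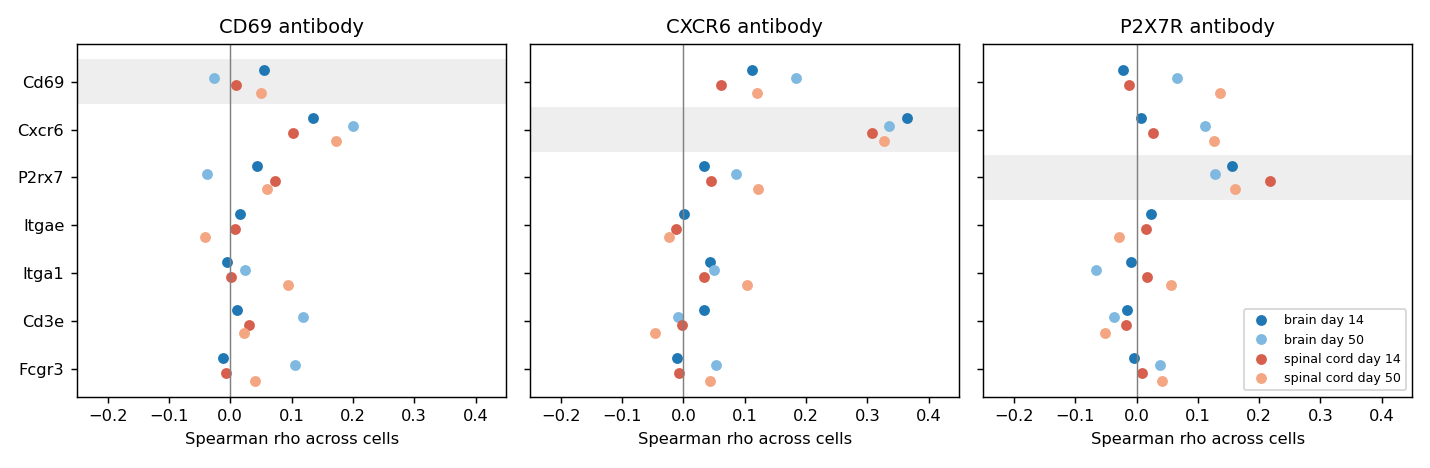
Spearman correlation across cells of each antibody count (panel) with the thinned transcript count of the 5 members and of Cd3e and Fcgr3, 1 point per library; grey bands mark the antibody's own gene. CXCR6 antibody lies between 0.308 and 0.364 with Cxcr6, while CD69 antibody lies between -0.027 and 0.056 with Cd69 and higher with Cxcr6. Itgae has no point in the day 50 brain, where it was not found, and Fcgr3 rests on 1 to 9 cells a library.

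The off-diagonal pairs placed Cxcr6, not Cd69, beside CD69 protein. CD69 antibody correlated with Cxcr6 transcript at 0.135, 0.199, 0.102 and 0.172, higher than with Cd69 in each of the 4 libraries. CXCR6 antibody correlated with Cd69 transcript at 0.112, 0.184, 0.061 and 0.120, again higher than CD69 antibody did. P2X7R antibody correlated with Cxcr6 and Cd69 transcripts at 0.127 and 0.136 in the day 50 cord, but at 0.008 and -0.022 in the day 14 brain. Itga1 correlated with CD69 antibody at 0.095 and with CXCR6 antibody at 0.104 in the day 50 cord. In the other 3 libraries Itga1 lay between -0.006 and 0.023 with CD69 antibody and between 0.034 and 0.050 with CXCR6 antibody. The Itgae values rest on 37, 44 and 6 positive cells and ranged from -0.041 to 0.024.

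The antibody features carry a second label in the tables, which names the P2X7R and CXCR6 features CD3 and CD16. The identifiers in the first label, which name the antibody targets given in the labels, were used here. Cd3e, a subunit of the CD3 complex, correlated with the P2X7R feature at -0.015, -0.037, -0.017 and -0.051. These lay under the values of P2rx7 with that feature in all 4 libraries. Fcgr3, which encodes mouse CD16, was found in 9, 1, 6 and 1 cells, so its correlation with the CXCR6 feature says nothing about that label.

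The dose relation between transcript and protein was flat for CD69. Day 14 cord cells with 0, 1, 2, 3 to 4, and 5 or more Cd69 UMIs had median CD69 antibody counts of 10, 9, 10, 10 and 10. In the day 14 brain the medians were 4, 4, 5, 5 and 5. A cell with no captured Cd69 thus had nearly the same antibody median as the 222 cord cells or 534 brain cells with 5 or more.

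For CXCR6 the medians were higher at each step in both day 14 libraries. Day 14 brain cells with 0, 1, 2, 3 to 4, and 5 or more Cxcr6 UMIs had median CXCR6 antibody counts of 9, 21, 24, 31 and 38.5. Day 14 cord cells had 16, 25, 26, 31 and 36. The step from 0 to 1 UMI was the largest, and mean antibody in brain cells with 5 or more UMIs was 2.67 times that of cells with none. For P2X7R, day 14 cord cells with 0, 1, 2, and 3 to 4 P2rx7 UMIs had medians of 8, 23, 32 and 36, the last from 11 cells. Day 14 brain cells with 0, 1 and 2 had 5, 11 and 17.

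**Figure D3:**
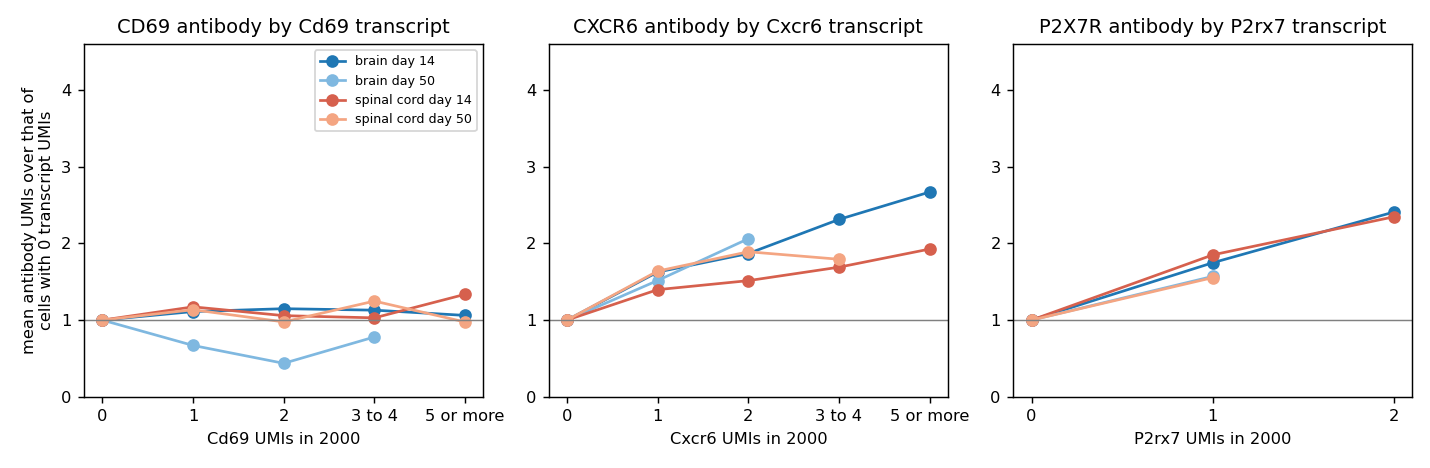
Mean antibody UMIs of cells grouped by the thinned transcript count of the same gene (horizontal axis, UMIs in 2000), divided by the mean of cells with 0 transcript UMIs; lines are libraries and only groups of 20 or more cells are drawn. CXCR6 climbs to 2.67 in the day 14 brain and P2X7R to 2.41, while CD69 lies between 0.436 and 1.34. The CD69 means of the day 14 cord include a single cell with 4533 counts.

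Discordant cells were counted from the upper and lower parts of the antibody count, with cells above the library's 75th percentile called protein-high and cells at or below the 25th called protein-low. Cd69 transcript was found in 64.8% of CD69-high and 56.9% of CD69-low cells of the day 14 brain, a ratio of 1.14. The shares were 52.5% and 64.0% in the day 50 brain, 47.0% and 46.4% in the day 14 cord, and 39.4% and 29.9% in the day 50 cord. The intervals overlapped in the day 50 brain and the day 14 cord, overlapped by a narrow margin in the day 50 cord (34.3 to 44.7% and 25.6 to 34.5%), and did not overlap in the day 14 brain.

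Cxcr6 transcript was found in 60.4% of CXCR6-high and 15.7% of CXCR6-low cells of the day 14 brain. The shares were 47.5% and 13.8% in the day 50 brain, 73.6% and 35.0% in the day 14 cord, and 55.9% and 13.9% in the day 50 cord. P2rx7 transcript was found in 11.5% of P2X7R-high and 2.02% of P2X7R-low cells of the day 14 brain. The later shares were 15.0% and 4.0%, 18.3% and 2.48%, and 12.2% and 1.75%. For both genes the intervals did not overlap, except for P2rx7 in the day 50 brain (7.10 to 26.6% against 0.833 to 11.2%). Protein-high cells also held more RNA, with medians of 4215 to 5859 UMIs against 3091 to 4544.5 over the 3 antibodies and 3 larger libraries, which the thinning equalizes for the transcript but not for the antibody.

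Cells with transcript but low protein made up 15.1%, 19.2%, 11.6% and 8.37% of all cells for CD69. Those shares were 0.945, 1.06, 0.994 and 0.872 of what the product of the 2 single shares gives. For CXCR6 the shares were 4.24%, 4.40%, 8.95% and 4.02%, or 0.377, 0.404, 0.591 and 0.371 of the product. For P2X7R they were 0.699%, 1.20%, 0.701% and 0.469%, or 0.386, 0.476, 0.285 and 0.245 of the product. The opposite class, high protein without captured transcript, made up 8.40 to 14.4% of cells for CD69, 6.56 to 12.8% for CXCR6 and 19.6 to 21.3% for P2X7R. Set against the product, these shares were 0.885 to 1.20 for CD69, 0.646 to 0.795 for CXCR6 and 0.895 to 0.946 for P2X7R. P2rx7 was captured in only 5.25% to 8.71% of cells, which limits how far this ratio can fall below 1 for P2X7R. The ratio is therefore not compared between P2X7R and CD69. An absent UMI at this depth does not show that a cell lacks the transcript.

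**Figure D4:**
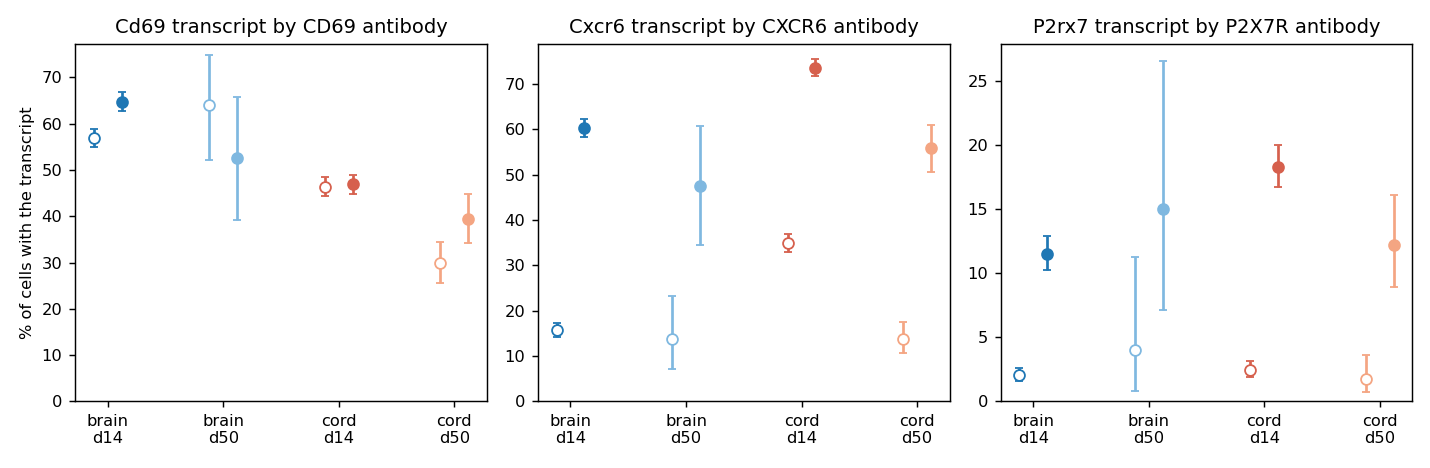
Percent of cells with 1 or more UMI of the gene after thinning, in protein-low (open circles) and protein-high cells (filled circles) of each library, with exact 95% Clopper-Pearson intervals for counting error. Open and filled circles are far apart for Cxcr6 and P2rx7 and close together for Cd69.

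CD69 protein went with genes other than Cd69. No gene was ranked against Cd69 transcript, so the genes named here are those of the antibody alone. Averaged over the 4 libraries, among 3160 genes found in 5% or more of cells in each, the lowest correlations with CD69 antibody were those of Klf2 (-0.290) and S1pr1 (-0.259). Klf2 is a transcription factor that drives S1pr1, and S1pr1 encodes the egress receptor that CD69 protein binds. Klf2 gave -0.244, -0.368, -0.287 and -0.260, and S1pr1 gave -0.166, -0.293, -0.222 and -0.355. Next lowest were Rasgrp2, an activator of Rap1, Rps27, a ribosomal protein, and Tcf7, a factor of memory and naive-like T cells (-0.173, -0.173 and -0.165). Highest were Ctsw (0.215), a cathepsin, Ramp1 (0.181), a partner of the CGRP receptor, Ckb (0.178), a creatine kinase, Bhlhe40 (0.170), a transcription factor of cytokine-producing T cells, and Plac8 (0.153). Cd69 itself stood at 0.022, rank 767 of 3160.

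Of the gene lists summed per cell, those of egress and homing and of immediate early and heat shock genes gave the same contrast. The residency list did not. It correlated with Cd69 transcript at 0.101, 0.061, 0.119 and 0.069, and with CD69 antibody at 0.049, 0.153, 0.072 and 0.165. The egress and homing list (among them Klf2, S1pr1, S1pr4, S1pr5, Ccr7, Klf3, Rasa3, Cd44 and Il7r) correlated with CD69 antibody at -0.262, -0.363, -0.266 and -0.281. With Cd69 transcript it correlated at 0.019, -0.031, 0.020 and 0.032. The list of 17 immediate early and heat shock genes (among them Fos, Jun, Egr1 and Zfp36), which respond within minutes to stimulation or handling, correlated with Cd69 transcript at 0.132, 0.324, 0.176 and 0.227. With CD69 antibody it correlated at -0.054, -0.015, -0.005 and 0.017. The list of 6 integrin partners (among them Itgb1, Itgb7 and Itga4) correlated with Cd69 transcript at 0.059, 0.067, 0.053 and 0.013. With CD69 antibody these integrin genes correlated at -0.070, -0.054, -0.164 and -0.087. The 14 genes of T cell receptor activation correlated with CD69 antibody at 0.107, 0.116, 0.153 and 0.053, and with Cd69 transcript at 0.019, 0.039, 0.003 and 0.105. The part of this list in the Cd69 transcript level was not tested.

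**Figure D5:**
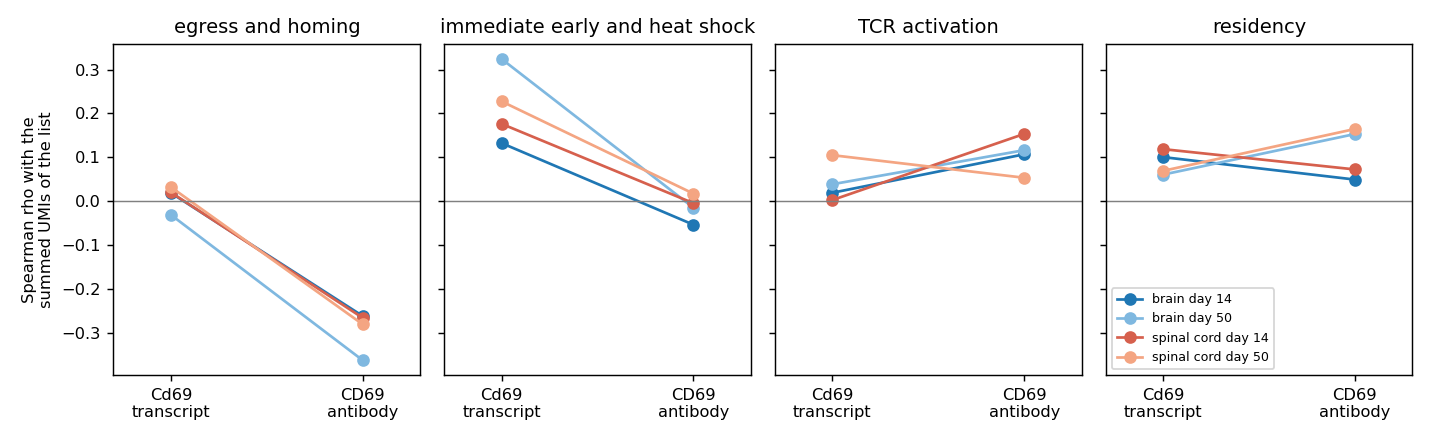
Spearman correlation across cells of the summed thinned UMIs of 4 gene lists with Cd69 transcript (left in each panel) and with CD69 antibody (right), 1 line per library. The egress and homing list lies near 0 with transcript and between -0.262 and -0.363 with antibody, and the immediate early list lies between 0.132 and 0.324 with transcript and near 0 with antibody. The residency list lies above 0 with both.

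The same genes differed by CD69 protein within Cd69-positive cells. These cells and their antibody counts had entered the correlations above, so this comparison adds no separate support. That holds too for the comparisons by CXCR6 and P2X7R protein below. Of the day 14 brain cells, 1384 had Cd69 transcript and low CD69 protein, and 1415 had both. Median RNA was 3629.5 and 5476 UMIs per cell before thinning. Called genes differed by 1.5-fold or more at a mean of 10 CPM or more and 20 or more UMIs, which held for 3.56% of 6435 genes in the higher direction and 5.67% in the lower direction. Of the 8 measured egress and homing genes 6 were higher in the protein-low cells and none lower. Klf2 was higher by 1.78 (log2; 1505 against 447 UMIs), S1pr1 by 2.11 (351 against 83) and Klf3, a relative of Klf2, by 1.93. Cd69 itself differed by -0.04, so these cells were matched for the transcript.

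The day 14 cord gave 6 of 7 egress and homing genes higher (background 4.74%) and none lower, with Klf2 at 2.72, S1pr1 at 2.34 and Klf3 at 2.44. The day 50 cord gave 5 of 6 higher (background 10.5%) with Klf2 at 2.95 from 76 and 11 UMIs. Its S1pr1 counts were 56 and 1. The day 50 brain had 48 and 31 such cells and was not compared.

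The 5 lowest genes of that brain comparison included Xcl1 and Ccl1, which encode chemokines. Cd69-positive brain cells with low protein had, at day 14, 15 Xcl1 UMIs against 240 (log2 -3.97), 141 against 1940 of Ccl1 (-3.75), and 35 against 322 of Csf2, which encodes GM-CSF (-3.17). Penk, the enkephalin precursor, had 7 against 95. The day 14 cord gave -5.56 (-7.85 to -3.98) for Xcl1, from 3 UMIs, -3.96 for Ccl1 and -2.16 for Csf2. Of the 13 measured genes of T cell receptor activation 7 were lower in the brain and none higher. Tnfrsf9, which encodes the costimulatory receptor 4-1BB, was at -2.01, Il2ra, the IL-2 receptor alpha chain, at -1.71, and Egr3 at -1.22. In the day 14 cord 10 of 14 were lower (background 7.24%). The day 50 cord had 2 of 5 lower (background 12.8%), with a list median of 0.07. Of the 15 immediate early and heat shock genes measured in the brain, none passed 1.5-fold in either direction, with Fos at 0.34 and Zfp36 at 0.56. In the day 14 cord 3 of 14 were higher and 1 lower (backgrounds 4.74% and 7.24%). In the day 50 cord 3 of 14 were higher and none lower (backgrounds 10.5% and 12.8%). Other members in the same brain cells were Cxcr6 at -0.59 and P2rx7 at -0.93, both lower with low CD69 protein, and Itga1 had 21 and 17 UMIs.

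Cells without captured Cd69 transcript gave the mirror comparison, protein-high against protein-low. They too had entered the correlations above, so the mirror adds no separate support. For the day 14 brain (769 against 1047 cells) 7 of 9 egress and homing genes were lower (background 7.03%) and none higher. Klf2 was at -2.40 and S1pr1 at -2.69. In the day 14 cord 7 of 8 (background 5.17%) and in the day 50 cord 7 of 8 (background 11.3%) were lower, with 1 higher in the day 50 cord. S1pr1 was at -2.12 and -4.30 there. Of the T cell receptor activation genes 9 of 14 were higher in the day 14 brain (background 7.92%) and 9 of 14 in the day 14 cord (background 7.75%), with 4 of 7 in the day 50 cord (background 11.1%) and none lower in any of the 3. In the brain, that list held Tnfrsf9 at 2.56 and Egr2 at 2.07. Ccl1 was at 3.84 with 1270 against 121 UMIs, and at 3.49 in the day 14 cord.

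Il17a, the cytokine of Th17 cells, was on the protein-high side in both day 14 libraries. It was at 2.76 in the day 14 brain, from 524 against 105 UMIs, and at 2.04 in the day 14 cord. In the day 50 cord it was at -0.91 from 23 against 59 UMIs, and the difference between libraries was not tested. Of the residency genes 5 of 15 were higher and 1 lower in the day 14 brain (backgrounds 7.92% and 7.03%). The day 14 cord had 5 of 17 higher and 1 lower (7.75% and 5.17%), and the day 50 cord 3 of 13 and none (11.1% and 11.3%). Xcl1 was higher at 1.16 in the brain, 3.9 in the day 14 cord and 2.67 in the day 50 cord, and Vps37b was lower at -1.13, -1.12 and -0.35.

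CXCR6 protein went with its own transcript. Averaged over libraries, Cxcr6 was first of 3160 genes at 0.334, followed by S100a4 (0.300), a calcium-binding protein of effector T cells, Ckb (0.262), Ctsw (0.259) and Tmsb4x (0.249), which encodes an actin-binding peptide. S100a4 ranged from 0.144 in the day 14 cord to 0.465 in the day 50 brain, and these means weigh each library alike. The lowest were Rps27 (-0.236), Rps29 (-0.225), Tcf7 (-0.224), Klf2 (-0.208) and Slamf6 (-0.193), a receptor of less differentiated T cells. Cells with no captured Cxcr6 but high CXCR6 protein numbered 888 in the day 14 brain and were set against 2080 with low protein. Of 9 egress and homing genes 6 were lower (background 6.26%) and 1 higher. Ccr7, the lymph node homing receptor, was at -3.30 with 10 against 231 UMIs, and S1pr1 at -1.70. The day 14 cord had 8 of 9 lower (background 7.26%), and the day 50 cord 4 of 8 lower and 1 higher (backgrounds 14.5% and 12.3%).

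On the higher side in those brain cells were Il17a (3.30, 500 against 119 UMIs), Ccr2, a receptor of inflammatory migration (1.78), Il1r1, the IL-1 receptor (1.68), and Bhlhe40 (1.19). Their values in the day 14 cord were 2.25, 1.12, 1.45 and 0.90. Cd69 was at 0.55, 0.65 and 0.80 in the day 14 brain, day 14 cord and day 50 cord. Itga1 was below the count filter, with 17 against 7, 17 against 14 and 7 against 3 UMIs, that is 2.51, 1.62 and 2.44, each with an interval above 0. Of the 10 genes for the CXCR6 axis and Th1 or Th17 receptors 7 were measured, of which 5 were higher in the brain (background 7.32%) and 1 lower (6.26%). Cord cells at day 14 had 3 of 7 higher and 1 lower (6.82% and 7.26%), and the day 50 cord 2 of 5 higher and 2 lower (12.3% and 14.5%).

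Cells with Cxcr6 transcript but low CXCR6 protein were fewer, 388 in the day 14 brain against 1353 with both. They had less Cxcr6 RNA themselves, at -0.36 in the brain and -0.41 in the day 14 cord. Of 7 egress and homing genes 3 were higher in the brain (background 7.2%), 4 of 7 in the day 14 cord (background 3.58%) and 1 of 4 in the day 50 cord (background 12%). None was lower, beside backgrounds of 6.67%, 3.17% and 18.5%. Among brain cells of the middle range of RNA content the median of these genes was 0.00 in place of 0.52, so the brain difference was not found at like RNA content. Klf3 was at 1.49 and 1.22, and S1pr1 at 0.83 and 0.72. Izumo1r, known as folate receptor 4 and found on helper and anergic T cells, was at 2.10 and 2.12.

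P2X7R protein correlated most with Ckb (0.196) and then with P2rx7 itself (0.166), followed by Tmem176a (0.147), Ramp1 (0.143) and Tmem176b (0.143). The lowest were Ccl5 (-0.146), Nkg7 (-0.141), Sh2d1a (-0.117), Klf2 (-0.115) and Rps27 (-0.111). Ccl5 and Nkg7 belong to the program of cytotoxic lymphocytes. For these 2 genes the day 50 cord gave the lowest values, -0.296 and -0.200, and the day 14 cord gave -0.032 and -0.051. Sh2d1a and Rps27 lay near 0 at day 14, at -0.028 and -0.011 in the brain and -0.039 and -0.045 in the cord. Their low means come mainly from the day 50 libraries. Among cells without captured P2rx7, 1952 protein-high and 3099 protein-low cells of the day 14 brain were compared. Gzmk and Gzmb, which encode granzymes, were lower at -2.14 and -2.24. The day 14 cord gave -2.78 and -3.74, and the day 50 cord -3.40 and -3.77.

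Cells with P2rx7 transcript but low P2X7R protein numbered 64 in each day 14 library. In the cord 4 of 6 egress and homing genes were higher (background 13.1%) and none lower (background 21%), and in the brain none of 5 was higher (background 10.8%) and 1 lower (background 19.9%). Their P2rx7 itself lay at -0.10 in both.

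Il22, a cytokine of Th17 cells, was higher in P2X7R-high cells of the day 14 brain at 2.20 (656 against 227 UMIs) and of the day 14 cord at 1.38. Of the egress and homing genes 5 of 9 were lower in the brain (background 1.57%) and 5 of 7 in the day 14 cord (background 2.09%), with 1 and 0 higher. The day 50 cord had 6 of 8 lower and 1 higher (backgrounds 13.6% and 9.92%), and the day 50 brain 2 of 4 lower (background 12.3%). None of the 6 brain genes passed 2-fold. S1pr1 was at -0.61 and -1.35. Of the P2X7 pathway list, which holds the ecto-enzymes and partners of the channel, 2 of 6 measured genes were higher in the day 14 brain (background 2.09%) and none lower. Cord cells at day 14 had 1 of 7 higher and 1 lower (2.85% and 2.09%), and the day 50 cord none of 6 higher and 2 lower (9.92% and 13.6%). The brain genes were Cd38, an NAD-consuming enzyme, at 0.67, and Nt5e, the ecto-nucleotidase CD73, at 0.65. Igkc, an immunoglobulin gene that T cells do not express, was lower at -2.31 in the brain and had 0 against 143 UMIs in the day 50 cord. Markers of B cells summed to 0.658 to 1.70 CPM in the libraries, and the part of other cells in these differences was not tested.

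Members were paired weakly as transcripts. Cells with both Cd69 and Cxcr6 were 1.06, 1.11, 1.01 and 1.06 times as frequent as the product of the single shares. Cxcr6 and P2rx7 gave 1.23, 1.12, 1.08 and 1.58. Itga1 was found in 1.70% of Cxcr6-positive and 0.712% of Cxcr6-negative cells of the day 14 brain. The later shares were 3.53% and 1.21%, 3.50% and 1.72%, and 6.64% and 2.67%, and their intervals overlapped only in the day 50 brain. No cell of the day 14 brain and 2 cells of the day 14 cord held both Itgae and Itga1. As protein, CD69 and CXCR6 correlated at 0.384, 0.334, 0.308 and 0.414, and at 0.275, 0.268, 0.238 and 0.350 within bins of cell size.

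Cells high for all 3 proteins numbered 483, 18, 443 and 91, and cells low for all 3 numbered 463, 14, 373 and 96. At day 14 in the brain, Cxcr6 was found in 63.1% of the first and 18.8% of the second, P2rx7 in 12.6% and 1.73%, and Cd69 in 67.7% and 51.2%. At day 14 in the cord, Cxcr6 was found in 76.1% and 41.3%, P2rx7 in 16.7% and 3.22%, and Cd69 in 47.4% and 45.6%. In the day 50 cord, Itga1 was found in 7 of 91 triple-high cells (7.69%, interval 3.15 to 15.2%) and in 0 of 96 triple-low cells. The latter allows up to 3.77%, so the intervals overlap. Itga1 shares in triple-high and triple-low cells were 1.24% and 0.648% in the day 14 brain. They were 3.16% and 2.14% in the day 14 cord. Itgae was found in 0 of 483, 3 of 443 and 0 of 91 triple-high cells.

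Between libraries the members differed by unequal amounts, with no replicate to judge them. From day 14 to day 50 in the brain, Itga1 was higher by 1.5 (log2; interval 0.77 to 2.15), Cd69 by 0.15, and Cxcr6 and P2rx7 lay at -0.08 and 0.03. The median of all genes was -0.11. Among all genes with a mean of 10 CPM or more, 6.81% of 6414 passed 1.5-fold as higher and 11.4% as lower. Cd69, Cxcr6 and P2rx7 did not pass. Itga1 entered only through day 50, where it rests on 20 UMIs, so its call is not counted. In the cord, Itga1 was higher by 1.11 and Cxcr6 lower at -0.90, with Cd69 at -0.43, P2rx7 at -0.28 and the all-gene median at -0.30. There 1 member was called higher (background 5.25%) and 1 lower (background 26.4%).

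Cord against brain at day 14 gave Itga1 at 1.26, P2rx7 at 0.85, Cxcr6 at 0.74 and Cd69 at -0.68, with an all-gene median of 0.19. Past 1.5-fold were P2rx7 and Cxcr6 as higher (background 11.9%) and Cd69 as lower (background 1.96%), while Itga1 reached the 10 CPM mean only through the cord and is not counted. Relative to that median Cxcr6 stood at 0.56, under the 1.5-fold line. At day 50 Cd69 stood at -1.25 and Itga1 at 0.88, with Cxcr6 at -0.07 and P2rx7 at 0.54 (backgrounds 6.12% lower and 5.35% higher). The immediate early and heat shock list had 11 of 15 measured genes lower in cord than in brain at day 50 (background 6.12%). At day 14 it had 7 of 14 lower (background 1.96%). The part of this list in the Cd69 values was not tested. Each comparison shares a library with 2 others. Itga1 depended on cell weighting: as a mean of thinned counts it was at 0.63 in the brain and 0.57 in the cord, the latter under the 1.5-fold line.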

How the data were processed

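The deposited tables hold raw UMI counts per gene, antibody and cell barcode, made by the authors with Cell Ranger 6.1.1 on mm10, per the submitters' processing notes; how barcodes were filtered is not given in the sources used here. Totals were 47272714 RNA UMIs in the day 14 brain, 1177903 in the day 50 brain, 50710551 in the day 14 cord and 6078142 in the day 50 cord. Antibody UMIs were 398618, 4916, 611316 and 60545. The 8 deposited samples are 4 RNA and 4 antibody libraries of 4 groups. Calculations used Python 3.11.15, numpy 2.4.6, scipy 1.17.1 and pandas 2.3.3. RNA was thinned without replacement to 2000 UMIs per cell. Spearman correlations, shares with Clopper-Pearson intervals, Poisson intervals and conditional binomial ratio intervals were computed per library. Thinning, the 1.5-fold gene calls and the rank correlation were tested on simulated data of the size of the day 50 cord. The intervals and the shares of discordant cells were not tested in this way. UMI counts limit the precision as the intervals show. Doublets were kept, since the member rule names no doublet filter: Scrublet (scanpy 1.11.5) called 0 of 10313 and 0 of 9270 day 14 cells, so it did not work there, and 5 and 13 day 50 cells. Removing these cells was an alternative.

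The members, gene lists and rules were chosen with earlier results of these data known. Named genes are the members, the 5 highest and 5 lowest correlated genes per antibody found in 5% or more of cells of each library, and in discordant cells up to 4 genes per list and the 5 highest and lowest genes in the library with most cells. No sequences were printed, since none of the measurements bears on a sequence. Gene coordinates are those of RefSeq on GRCm38.p6. One gene of the egress and homing list is not reported here by name.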

Additional observations from a re-analysis of the deposited data

Results flagged for a closer look

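Cd69 transcript moved in opposite directions in the 2 tissues. Relative to the median of all genes, its log2 ratio of day 50 to day 14 was 0.256 in the brain and -0.135 in the spinal cord, and both counting intervals excluded 0. Each value compares 1 library with 1 library, and the difference between the tissues was not tested. Neither value passed 1.5-fold. The median log2 ratio over the immediate early and heat shock genes was 0.70 in the brain, with 10 of 15 higher and none lower beside 6.81% and 11.4% of all genes. In the cord it was 0.40, with 6 of 15 higher and 2 lower beside 5.25% and 26.4%. Their part in the Cd69 values was not tested.

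Several genes stood on opposite sides in different libraries when protein-high and protein-low cells were compared, with counting intervals that excluded 0 on both sides. These differences between libraries were not tested. Among cells without captured P2rx7, Cd69 was at -0.10 (log2, P2X7R-high against P2X7R-low) in the day 14 brain and -0.10 in the day 14 cord, and at 0.67 in the day 50 brain and 0.98 in the day 50 cord. In the same cells Cxcr3, a chemokine receptor of Th1 cells, was at -0.41 (day 14 brain), -0.55 (day 14 cord) and 0.51 (day 50 cord). Itgb7, the beta chain that pairs with Itgae, was at -0.21, -0.26 and 0.72 in those libraries, and Tnfsf8, the CD30 ligand, at 0.83, 0.56 and -0.70. Xcl1 was at -0.64 in the day 14 brain and 0.57 in the day 50 cord.

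Among cells without captured Cd69, CD69-high against CD69-low, Il17a was at 2.76, 2.04 and -0.91 in the day 14 brain, day 14 cord and day 50 cord. Cxcr3 was at -0.36, -0.51 and 0.64 there. Among cells without captured Cxcr6, CXCR6-high against CXCR6-low, Ier3, an immediate early gene, was at 1.11 in the day 14 brain and -2.12 in the day 50 cord. Among Cxcr6-positive cells, CXCR6-low against CXCR6-high, Il2 was at 2.07 in the day 14 brain and -2.08 in the day 14 cord.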

How the results depend on the processing

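No paired analysis was possible because only 1 library stands for a group. Of 12 correlations of antibody with own transcript, all 12 moved at full depth: Cd69 to 0.205, 0.130, 0.122 and 0.129, Cxcr6 to 0.549, 0.527, 0.469 and 0.464, and P2rx7 to 0.263, 0.225, 0.386 and 0.237 (day 14 brain, day 50 brain, day 14 cord, day 50 cord). With each antibody as a share of the 3 they became -0.0120 (day 14 brain), -0.211 (day 50 brain) and -0.0470 (day 50 cord) for Cd69, 0.283, 0.131, 0.215 and 0.183 for Cxcr6, and 0.0828 for P2rx7 in the day 50 cord. Thinning to 1000 UMIs gave Cxcr6 0.275 (day 14 brain), 0.251 (day 14 cord) and 0.270 (day 50 cord), P2rx7 0.0826, 0.163 and 0.0980 in the same libraries, and Cd69 0.0403 in the day 50 brain. Thinning to 3000 gave P2rx7 0.279 in the day 14 cord. In the day 50 brain a second seed gave P2rx7 0.188, Scrublet calls removed gave Cd69 -0.103, and removing barcodes shared between libraries gave Cd69 -0.143, Cxcr6 0.391 and P2rx7 0.0269. Over 20 draws the means there were -0.0539, 0.369 and 0.106 with shared barcodes and -0.0618, 0.393 and 0.101 without. Size bins, antibody thinning, all deposited barcodes and leaving out the 5% of cells with most RNA each kept all 12 within 0.05.

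The protein-high over protein-low ratio of shares became 1.22 (day 14 brain) and 1.16 (day 14 cord) for Cd69 at full depth, and 1.79 for Cxcr6 in the day 14 cord. Between the extreme 10% of cells Cxcr6 gave 5.49, 4.09 and 8.93 in the 3 larger libraries, and with 2 or more UMIs 6.16 and 3.02 at day 14. Relative to the all-gene median, Cd69 lay at 0.26 (brain, day 50 against 14), -0.13 (cord, day 50 against 14) and -0.86 (cord against brain, day 14). Cxcr6 lay at -0.60 and 0.56, P2rx7 at 0.015 and 0.67 in the latter 2, and Itga1 at 1.41 in the cord. Thinned means gave Cxcr6 -0.24, P2rx7 0.58 and Itga1 0.63 in the brain over time, Cd69 -0.54 and Itga1 0.57 in the cord over time, and Cd69 -0.63 (day 14) and P2rx7 -0.13 (day 50) between tissues. With genes of 10 or more UMIs in place of 10 CPM, 40.9%, 25.2% and 25.5% of genes passed 1.5-fold in the brain over time and between tissues at day 14 and day 50, against 18.2%, 13.9% and 11.5%. At 2-fold, 11 of 23 list counts moved: T cell receptor activation genes in Cd69-positive cells went from 7 to 3 (brain) and 10 to 4 (cord) at day 14, and egress genes in P2X7R-high cells without transcript from 6 to 0 and 5 to 3, both directions counted. Between the extreme 10% of cells the T cell receptor activation median in day 50 cord cells without Cd69 reversed to -0.16 from 0.61. The cause of these shifts was not tested.

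Removing shared barcodes, the repeated draws, full-depth zeros, the middle range of RNA content and leaving out the largest cells in gene comparisons were chosen after seeing the data. Depth limits Itgae, the day 50 brain and every class under 50 cells.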

Other observations

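The beta chains that pair with Itga1 and Itgae, Itgb1 and Itgb7, were read in the same cells. Among Cd69-positive cells, Itgb1, the beta1 chain, was higher in CD69-low than in CD69-high cells by 0.68 (log2) in the day 14 brain, 0.85 in the day 14 cord and 1.13 in the day 50 cord. Itgb7 stood at 0.35, 0.64 and 0.45, the last with an interval that includes 0. Itga4, which with Itgb1 forms the VLA-4 integrin, was higher by 0.61, 0.93 and 0.10. Among cells without captured P2rx7, Itgb1 was lower in P2X7R-high cells of the day 14 brain (-0.75) and day 14 cord (-1.13) and lay at -0.05 in the day 50 cord. Of the 6 integrin partners, 2 were higher and none lower in CD69-low cells of the day 14 brain (3.56% and 5.67% of all genes). At day 14 the cord had 3 higher and 1 lower (4.74% and 7.24%), and the day 50 cord 1 of 5 higher and none lower (10.5% and 12.8%).

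For the TGF-beta list, CD69-low against CD69-high in Cd69-positive cells, 1 of 8 measured genes was lower and none higher in the day 14 brain, beside 5.67% and 3.56% of all genes. The day 14 cord had 2 of 9 lower and none higher (7.24% and 4.74%), and the day 50 cord 1 of 5 higher and none lower (10.5% and 12.8%). Tgfb1, the ligand, was lower in CD69-low cells of the day 14 brain and day 14 cord at -0.66 and -0.74. In cells without captured Cd69 of these libraries it was higher in CD69-high cells at 0.91 and 0.80. In such cells of the day 50 cord, none of 7 measured genes of the list was higher and 1 was lower (11.1% and 11.3%).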
